A study of Mus musculus with 12 samples.

Results

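Places in the genome where 2 histone marks of opposite reputation meet were examined in mouse embryonic stem cells: sites of trimethylation of lysine 4 on histone H3 (H3K4me3) that also held a peak of trimethylation of lysine 9 (H3K9me3). They were selected on the measured peaks themselves. H3K4me3 peaks of 4 libraries on chromosomes 1 to 19 were merged where they overlapped by at least 1 bp, which gave 22831 regions, and 19314 of these had a peak in at least 2 of the 4 libraries. The 479 regions among them (2.48%) that overlapped an H3K9me3 peak of at least 1 of 4 libraries by at least 1 bp are called dual sites here, and the remaining 18835 are called other H3K4me3 regions. Because peaks of both marks chose the dual sites, their H3K4me3 and H3K9me3 values are a description and carry no test. Acetylation of lysine 27 (H3K27ac) played no part in the choice and was tested.

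All cells were E14TG2a, a mouse embryonic stem cell line, grown in serum medium with leukaemia inhibitory factor (LIF) and the kinase inhibitors PD0325901 and CHIR99021. The groups were wild type (WT) and a line carrying the Alkbh5 del-cIDR allele, in which ALKBH5 is without its C-terminal disordered stretch (cIDR). ALKBH5 is an enzyme that removes the methyl group of N6-methyladenosine from RNA. CUT&Tag was used for H3K4me3 and H3K27ac and CUT&RUN for H3K9me3. In either method an enzyme tethered to the antibody tags or cuts the chromatin nearby. Each mark had 2 libraries per genotype, 12 in all. The labels do not say how many clones the del-cIDR line represents or whether replicates came from separate cultures, so every p-value measures the spread of these libraries alone, and part or all of that spread may be technical.

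H3K4me3 is laid down at the starts of active and poised genes by the SET1 and MLL enzymes. H3K9me3 is written by SETDB1 and the SUV39H enzymes at silenced repeats, endogenous retroviruses and heterochromatin, and H3K27ac marks active promoters and enhancers. H3K4me3 and H3K9me3 usually keep apart. They are known to meet at imprinted control regions, where each allele carries one of them, and at edges where an active start adjoins silenced sequence. A profile of many cells cannot tell whether both marks sat on the same nucleosome, on opposite alleles or in different cells.

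The autosomal lists held 18367 to 19242 H3K4me3 peaks, 22810 to 32353 H3K27ac peaks and 20895 to 41183 H3K9me3 peaks. WT replicate 1 of H3K9me3 stood apart with the shortest list, 20895 peaks beside 34154 and 37789 in the del-cIDR replicates and 41183 in WT replicate 2. The longer H3K27ac lists were those of del-cIDR, with 27883 and 32353 peaks beside 25153 and 22810 in WT. The lists carry no read counts, so depth is unknown and no counting interval could be given. All coordinates are GRCm39 and count from 1. Values given for 4 libraries in a row follow the order del-cIDR replicate 1, del-cIDR replicate 2, WT replicate 1, WT replicate 2. Fold is the enrichment of a peak in its own list as the authors gave it, and it ranks or describes peaks of that list. Folds of several libraries set side by side give the level in each list and are no measured difference between libraries.

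Most dual sites were seen in few H3K9me3 libraries. H3K9me3 was present in 1 library at 208 sites (43.4%), in 2 at 132 (27.6%), in 3 at 90 (18.8%) and in all 4 at 49 (10.2%). Of the 208 single-library sites, 42 had the peak in del-cIDR replicate 1, 106 in del-cIDR replicate 2, 6 in WT replicate 1 and 54 in WT replicate 2. Without WT replicate 1, the library with the shortest list, 123 sites had H3K9me3 in all the 3 remaining libraries. H3K4me3 was found in all 4 of its libraries at 252 dual sites (52.6%), beside 81.3% of the other H3K4me3 regions. Both marks were present in all 4 libraries at 31 dual sites. The libraries of a genotype shared 72.1% (del-cIDR) and 85.7% (WT) of the dual sites that either had for H3K4me3, and 44.6% and 22.7% for H3K9me3. The selection asked for H3K4me3 in at least 2 libraries but for H3K9me3 in only 1. It therefore sets part of this difference, and the repeatability of the 2 marks cannot be compared here.

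**Figure D1:**
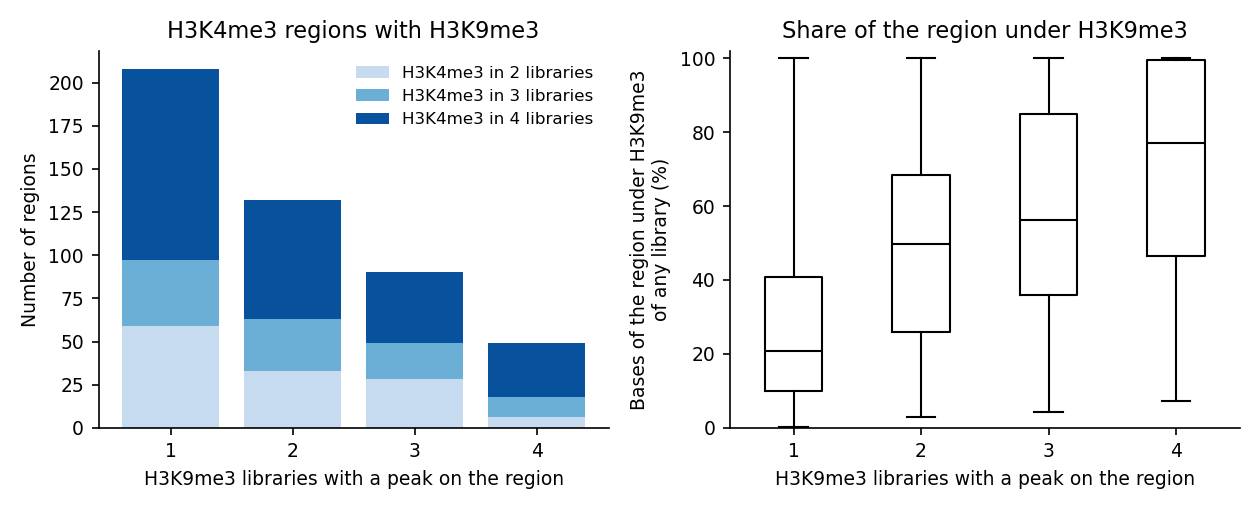
Left, number of dual sites by the number of H3K9me3 libraries with a peak on the site, with bars stacked by the number of H3K4me3 libraries. Right, percent of the site's bases under H3K9me3 of any library for the same classes, as boxes from the lower to the upper quartile with the median as a line and whiskers over the whole range. The bars fall from 208 to 49 sites while the medians go from 20.9% to 77.1%.

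The H3K9me3 peaks at dual sites lay near the limit of calling, although they were not the weakest of their lists. Their median fold was 3.88 and 3.76 in the del-cIDR replicates and 4.01 and 3.74 in the WT replicates, beside 3.52, 3.47, 3.70 and 3.46 for all peaks of the same lists. The median percentile of fold within each list was 76.3, 70.6, 75.8 and 71.6. Their median −log10 q was nevertheless 1.95 to 2.09, where the lists begin at 1.00. With H3K9me3 peaks of −log10 q of at least 5 only, 26 dual sites were left. The label of a site carrying both marks therefore rests mostly on weak H3K9me3 peaks.

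H3K9me3 regions crossed 1 edge of a dual site more often than they lay inside it or contained it. There were 501 pairs of a dual site and a merged H3K9me3 region. In 358 of them (71.5%) the H3K9me3 region crossed 1 edge of the H3K4me3 region, in 106 (21.2%) it lay inside, and in 37 (7.39%) it contained the whole site. The median widths were alike, 759 bp for these H3K9me3 regions and 831 bp for dual sites. Overlapping intervals of like width mostly cross an edge wherever they fall. No expected share was computed, so these shares do not show that the marks meet at boundaries. The median dual site had 38.7% of its length under H3K9me3 of any library, and 189 sites (39.5%) had at least 50%. At the low end, 64 sites had under 10%, 30 sites had under 50 bp, and the smallest overlap was 3 bp. The covered part was larger at sites seen in more libraries, with a median of 20.9% at sites with 1 H3K9me3 library, 49.7% with 2, 56.2% with 3 and 77.1% with 4. More libraries also give more chances to cover a base.

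The point of highest H3K4me3 signal fell under H3K9me3 about as often as outside it. Fewer bases of the dual sites lay under H3K9me3 of any library (178477 bp) than outside it (256482 bp). Of the H3K4me3 peak summits at dual sites, 167 of 354 (47.2%) and 189 of 369 (51.2%) in the del-cIDR replicates and 207 of 420 (49.3%) and 224 of 437 (51.3%) in the WT replicates lay under H3K9me3 of any library. Averaged over all dual sites, H3K9me3 formed a narrow bump on the site. A rise there follows from the choice of sites by an H3K9me3 peak, so only the values are given. At the centre 19.8%, 28.8%, 6.05% and 16.7% of the dual sites were under a peak. From 2 to 10 kb away the share was 1.28%, 1.55%, 0.750% and 1.68%. The same flanks of other H3K4me3 regions were lower, at 0.559%, 0.736%, 0.201% and 0.627% in the same order.

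**Figure D2:**
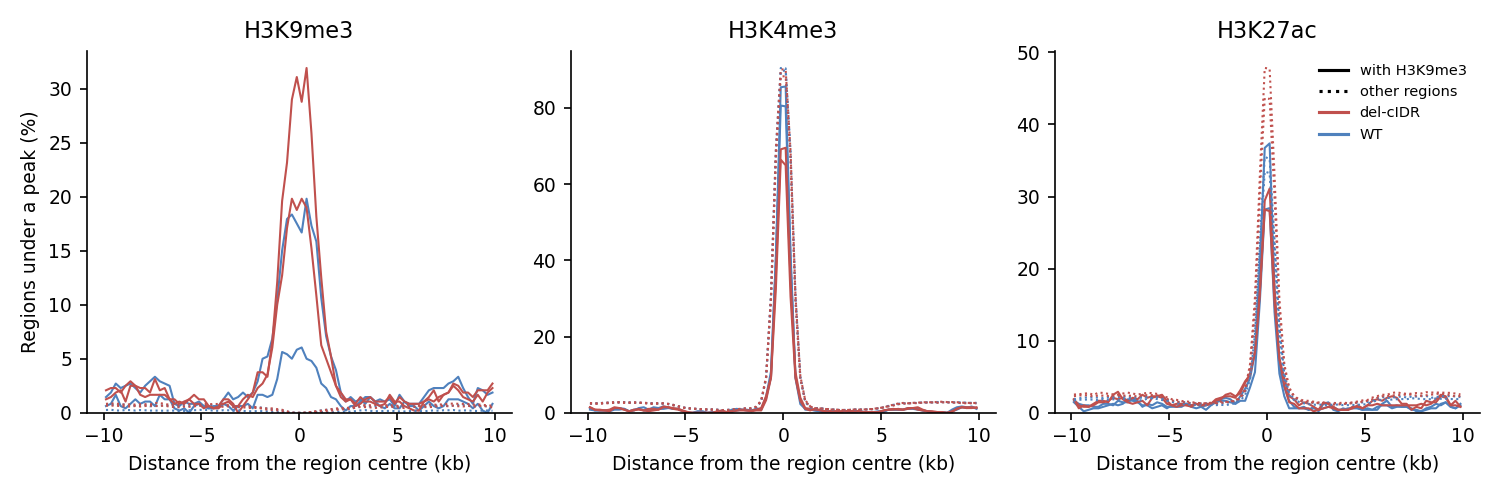
Percent of regions under a peak against distance from the region centre in kb, 1 panel per mark and 1 line per library, solid for dual sites and dotted for other H3K4me3 regions. H3K9me3 at dual sites is a narrow bump, with 6.05% to 28.8% of the sites at the centre and 0.750% to 1.68% from 2 to 10 kb away. A rise at the site follows from the choice of sites by an H3K9me3 peak.

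Dual sites were narrower H3K4me3 regions. Their width ran from 341 to 2756 bp with a median of 831 bp, beside a median of 1129 bp for other H3K4me3 regions, a ratio of 0.736. The quartiles were 637 and 1087.5 bp. Only 11 dual sites were wider than 2000 bp, where 1185 other regions were. What the choice of sites by their peaks contributes to this width was not tested. H3K4me3 was also weaker. As a percentile of its own list, the median fold was 37.7 and 38.5 in del-cIDR and 45.2 and 48.8 in WT, beside 52.4 to 53.1 for other regions in the 4 lists.

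They were also solitary. The median dual site lay 52.3 kb from the nearest H3K4me3 region, where other regions lay 18.1 kb from theirs, and 36.1% of dual sites had no neighbour within 100 kb, beside 10.8% of other regions. H3K9me3 peaks that did not touch the site were more frequent around it. Within 50 kb there were 2.45, 2.59, 1.80 and 2.91 per dual site, and 0.936, 1.04, 0.541 and 1.09 per other region. H3K27ac showed the opposite order. The 4 H3K27ac libraries had 1.49, 1.69, 1.32 and 1.14 peaks within 50 kb of a dual site and 2.83, 3.27, 2.56 and 2.38 within 50 kb of another H3K4me3 region. The mean was 1.41 ± 0.235 against 2.76 ± 0.387 (SD, n = 4 libraries), a difference of -1.35 that had the same sign in 4 of 4 libraries. The exact sign-flip permutation test, two-sided, gave p = 0.125, the smallest that 4 libraries allow.

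Dual sites were spread over all 19 autosomes, unevenly. They made up 0.835% of the replicated H3K4me3 regions of chromosome 11 (13 of 1557), 1.22% on chromosome 9 and 1.24% on chromosome 7, and 3.82% on chromosome 16 (25 of 655), 3.51% on chromosome 6 (37 of 1054) and 3.44% on chromosome 1. Within 10 Mb of the chromosome start, where mouse autosomes have their centromere, lay 5.85% of dual sites and 5.23% of other regions. Of the 479 sites, 272 were alone and 207 lay in 81 runs in which neighbours were less than 1 Mb apart.

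The longest run by number of dual sites, chr4:145136528-147953509, held 12 among its 60 replicated H3K4me3 regions. It spans 2817 kb of distal chromosome 4. At 10 of the 12 H3K4me3 was present in all 4 libraries, and at 6 H3K27ac was. H3K9me3 was present in all 4 libraries at only 2 of them. One of these was chr4:146289013-146289415, where H3K9me3 had folds of 6.77, 7.55, 5.68 and 7.73 and H3K27ac had 15.6, 11.5, 12.3 and 9.88. This site was 403 bp wide, with H3K4me3 folds of 8.70, 11.0, 9.77 and 12.6. The run also held the widest dual site of all, chr4:145158681-145161436, 2756 bp, with H3K4me3 folds of 7.87, 7.59, 9.05 and 8.33 and H3K9me3 in only 1 library per genotype, at 2.84 (del-cIDR replicate 2) and 2.82 (WT replicate 2).

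The densest of the 3 longest runs, those with the most dual sites, was chr8:19748477-21130828. There 9 of 16 replicated H3K4me3 regions (56.3%) were dual sites, beside 2.48% over all chromosomes examined. A run starts and ends at a dual site by construction, which raises its share. In the chr8 run acetylation was the rule, with H3K27ac in all 4 libraries at 8 of the 9 sites. At chr8:20119387-20120531, named after its values were seen, H3K4me3 had folds of 17.3, 17.1, 19.3 and 18.3 and H3K27ac had 14.5, 15.7, 14.7 and 15.8. H3K9me3 was there in 3 libraries, at 4.79 in del-cIDR replicate 2 and 5.28 and 3.65 in WT. The neighbouring chr8:20045959-20046769 carried all 3 marks in all libraries, with H3K9me3 folds of 4.80, 4.80, 5.41 and 6.18. The third run, chr14:77536897-80326913, held 5 dual sites among 19 regions (26.3%), of which 1 had H3K4me3 in all 4 libraries and 1 had H3K27ac in all 4.

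A small set stood out for carrying everything. At 19 dual sites all 12 libraries had a peak, and these lay on 12 chromosomes with widths of 363 to 2169 bp and a median of 811 bp. The strongest in H3K9me3 was chr1:24651689-24652338, with H3K9me3 folds of 16.8, 20.3, 16.4 and 13.9. H3K4me3 reached 25.9, 24.7, 24.9 and 24.9 and H3K27ac 28.6, 31.2, 28.1 and 29.9, so the same 650 bp was high in every library of 3 marks. H3K9me3 covered only 226 to 234 bp of it.

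At chr2:98496632-98497650 H3K9me3 covered all 1019 bp in each library, with folds of 6.66, 6.54, 7.14 and 6.56. H3K4me3 there had folds of 12.8, 11.4, 12.1 and 10.7, and H3K27ac had 11.8, 13.0, 13.2 and 13.8. The second site covered whole in each library was chr9:3024048-3024654, 607 bp near the start of its chromosome, with H3K9me3 at 6.36, 6.24, 6.96 and 6.35 and H3K27ac at 18.1, 20.5, 20.1 and 21.8. Every base of these sites under H3K4me3 or H3K27ac was thus also under H3K9me3, in both genotypes. H3K4me3 peaks covered 656, 597, 1019 and 1015 bp of the chr2 site and 551, 559, 607 and 559 bp of the chr9 site. The highest H3K4me3 folds of a site with both marks throughout were those of chr16:43589364-43590524, at 27.3, 26.6, 28.5 and 26.7. H3K9me3 occupied 178 to 273 bp of its 1161 bp, at folds of 5.56, 6.53, 5.28 and 6.78. No control library was at hand against which sites high in every assay could be checked. Some results are therefore also given without these 19 sites, but not all that could move with them were computed that way.

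Other sites had both methylation marks in all libraries with little or no acetylation. At chr5:68377907-68379223, 1317 bp, H3K9me3 folds were 14.1, 17.9, 5.99 and 7.63. H3K4me3 there had folds of 8.52, 9.31, 8.44 and 9.66, and no library had H3K27ac. At chr16:13747254-13748762, 1509 bp, H3K9me3 covered 1071, 1509, 1113 and 1242 bp at folds of 3.46, 3.32, 3.61 and 3.34. H3K4me3 lay over it at folds of 5.998, 5.81, 4.68 and 4.47, and H3K27ac appeared in a single library, del-cIDR replicate 2, at 4.23. At chr7:7212156-7213091, 936 bp, H3K4me3 was stronger, with folds of 9.84, 10.0, 9.60 and 9.02, beside H3K9me3 folds of 5.14, 4.90, 4.84 and 4.24. H3K27ac was found there in 1 library of each genotype. At chr3:4227315-4228044 H3K4me3 reached 19.8, 22.9, 17.1 and 16.5 beside H3K9me3 of 6.22, 6.46, 7.40 and 5.34, and H3K27ac was called only in del-cIDR replicate 1, at 4.76.

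H3K27ac had a lower share at dual sites than at other H3K4me3 regions in each of its libraries. It was present at 180, 191, 229 and 181 of the 479 dual sites, which is 37.6%, 39.9%, 47.8% and 37.8%. At other H3K4me3 regions the shares were 58.8%, 64.5%, 50.1% and 48.8%. The mean difference over the 4 libraries was -14.8 percentage points (SD 10.1, n = 4; exact sign-flip permutation test, two-sided, p = 0.125, the smallest possible). The size of the difference depended on how it was taken. Within classes of H3K4me3 width the weighted difference was -7.24 points (exact permutation p = 0.375), with H3K4me3 in all 4 libraries it was -3.47 (exact permutation p = 0.375), and with H3K27ac over at least 50% of the region -4.01 (exact permutation p = 0.5). With 1 library left out it ran from -18.9 to -8.95, the latter without H3K4me3 WT replicate 2. Without the 19 sites with a peak in all 12 libraries the difference was -17.2 (exact permutation p = 0.125). At the 26 dual sites over strong H3K9me3 peaks, with −log10 q of at least 5, the order was reversed. Their share was 16.03 points above that of the remaining H3K4me3 regions, which here included the dual sites with only weaker H3K9me3 peaks. This reversed difference was not computed without the 19 sites. No library had H3K27ac at 37.0% of dual sites and 26.7% of other regions, and all 4 had it at 23.6% and 38.6%.

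**Figure D3:**
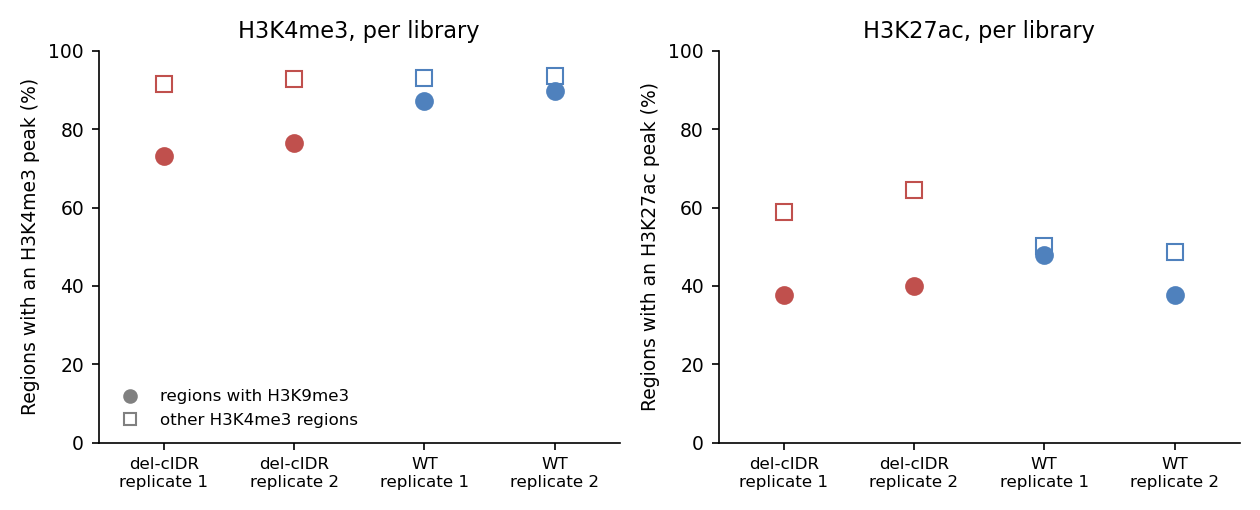
Percent of regions with a peak in each library of H3K4me3 (left) and H3K27ac (right), filled circles for dual sites and open squares for other H3K4me3 regions. H3K27ac was present at 37.6% to 47.8% of dual sites and at 48.8% to 64.5% of other regions, and the H3K4me3 points of dual sites are lowest in del-cIDR.

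The share of acetylated dual sites varied with the H3K4me3 region. It was 20.8% at dual sites with H3K4me3 in 2 libraries, 27.2% with 3 and 56.2% with 4 (means of the 4 H3K27ac libraries), where other regions had 36.7%, 38.8% and 59.6%. By width it was 28.6% below 500 bp, 33.9% from 500 to 1000 bp, 56.2% from 1000 to 2000 bp and 77.3% above that, beside 34.3%, 41.9%, 62.8% and 78.1%. By width the gap to other regions was thus smallest in the widest class, which holds only 11 dual sites, and it did not fall steadily over the narrower classes. By number of H3K4me3 libraries it was smallest at sites with H3K4me3 in every library. There the gap lay in del-cIDR, with a mean of 54.6% at dual sites and 66.3% at other regions. In WT the mean was higher at dual sites, 57.7% against 53.0%, though WT replicate 2 had 52.0% and 52.4%. WT means were slightly higher at dual sites from 500 to 1000 bp (37.4% against 36.3%) and from 1000 to 2000 bp (56.5% against 56.1%). In the other classes of width and of H3K4me3 libraries WT means were lower at dual sites. By number of H3K9me3 libraries the share was 38.5% with 1, 40.0% with 2 and 38.9% with 3, and 56.1% with all 4. All of the 19 sites with a peak in every library are among the 49 of that last class. Without them, 28.3% of the remaining 30 were acetylated. By its terms this step takes out only sites acetylated in all libraries, and only from this class. The share is therefore not comparable with those of the other classes.

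Where a dual site was acetylated, its H3K27ac peak was strong. As a percentile of the H3K27ac list, the median fold was 79.7, 79.0, 77.6 and 85.9, beside 67.1, 69.9, 65.4 and 64.2 at other H3K4me3 regions. The difference was 13.9 percentile points (SD 5.44, n = 4), positive in 4 of 4 libraries (exact sign-flip permutation p = 0.125, two-sided, the smallest possible). Without the 19 sites with peaks in all 12 libraries it was 8.999 points, again positive in each of the 4 libraries (exact permutation p = 0.125). Of the acetylated dual sites, 35.6%, 34.0%, 33.2% and 38.7% lay at or above the 90th percentile of the list, beside 16.8%, 18.9%, 16.2% and 16.1% of the acetylated other regions.

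**Figure D4:**
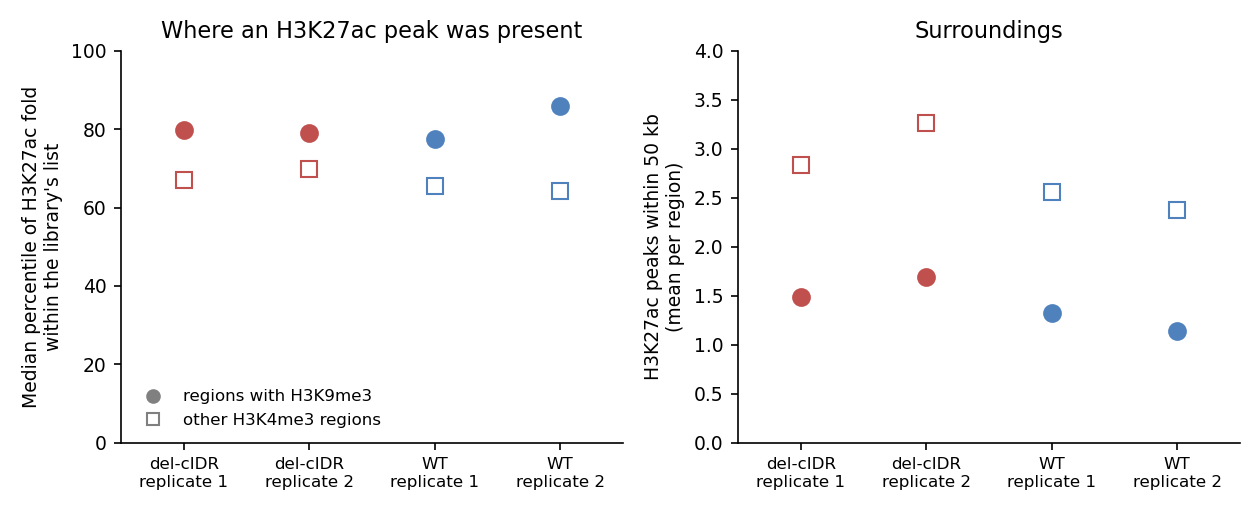
Left, median percentile of H3K27ac fold within the library's list at regions with an H3K27ac peak, and right, mean number of H3K27ac peaks within 50 kb of a region, for each of the 4 H3K27ac libraries. Filled circles (dual sites) lie above open squares (other H3K4me3 regions) on the left and below them on the right in each library.

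Within dual sites, H3K27ac covered a somewhat larger share of the stretches under H3K9me3 than of the rest, in each of its libraries. The dual sites held 178477 bp under H3K9me3 of any library and 256482 bp outside it. H3K27ac peaks covered 30.4%, 31.6%, 37.1% and 28.3% of the former and 24.6%, 26.6%, 30.5% and 24.5% of the latter. The mean difference was 5.27 points, positive in 4 of 4 libraries (exact sign-flip permutation p = 0.125, two-sided, the smallest possible). It was not computed without the 19 sites with peaks in all 12 libraries. Likewise 55.9%, 56.1%, 53.6% and 54.3% of the H3K27ac summits at dual sites lay under H3K9me3. H3K4me3 covered both kinds of stretch to a like extent, with 58.8%, 65.0%, 72.2% and 76.7% of the part under H3K9me3 and 62.3%, 65.8%, 74.3% and 77.6% of the rest.

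Between genotypes, H3K4me3 peaks were found at fewer dual sites in both del-cIDR libraries than in either WT library. They were present at 350 and 366 of 479 sites in the del-cIDR replicates (73.1% and 76.4%) and at 417 and 430 in the WT replicates (87.1% and 89.8%). Other H3K4me3 regions had 91.6% and 92.8% in del-cIDR and 93.1% and 93.6% in WT. Sites called WT-only, with H3K4me3 in each WT library and in no del-cIDR library, numbered 63 (13.2%), against 3.4% over all replicated H3K4me3 regions. The opposite pattern was seen at 23 sites (4.80%), against 2.37% over all. Only regions with H3K4me3 in exactly 2 libraries can show either pattern, and these were a larger part of the dual sites. They numbered 126 dual sites, 63 WT-only and 23 del-cIDR-only, and 1902 other regions, 594 and 435. Among them the del-cIDR-only share was lower at dual sites than at other regions, and the WT-only share was higher. WT-only sites outnumbered del-cIDR-only sites on 15 of the 19 chromosomes, were fewer on 3 and as many on 1. The chromosomes share the same 4 libraries, so they do not repeat the comparison. Over all replicated H3K4me3 regions WT-only regions were also more numerous, 657 beside 458. With 1 del-cIDR library left out, which lets more sites qualify by construction, the WT-only count was 97 (without replicate 1) and 105 (without replicate 2), and the del-cIDR-only count was 37 without WT replicate 2. These counts use the peaks that chose the sites, so nothing is tested by them.

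The same direction was seen in strength at the 252 dual sites with H3K4me3 in all 4 libraries. Fold was ranked in each library among the 15566 regions found in all 4, as a percentile. The median dual site ranked at 36.5 and 36.9 in the del-cIDR libraries and at 46.2 and 49.8 in the WT libraries, which is 36.7 ± 0.236 and 48.0 ± 2.50 (SD, n = 2 each). Other regions ranked at 50.2, 50.2, 50.1 and 50.01. Both del-cIDR ranks lay below both WT ranks at 97 of the 252 sites (38.5%), where 19.1% of all such regions did so. They lay above at 41 (16.3%), where 19.4% of all did. Without chromosomes 6, 8 and 12, left out after the data had been seen, 203 sites remained and the ranks were 38.0, 38.5, 46.5 and 50.5.

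**Figure D5:**
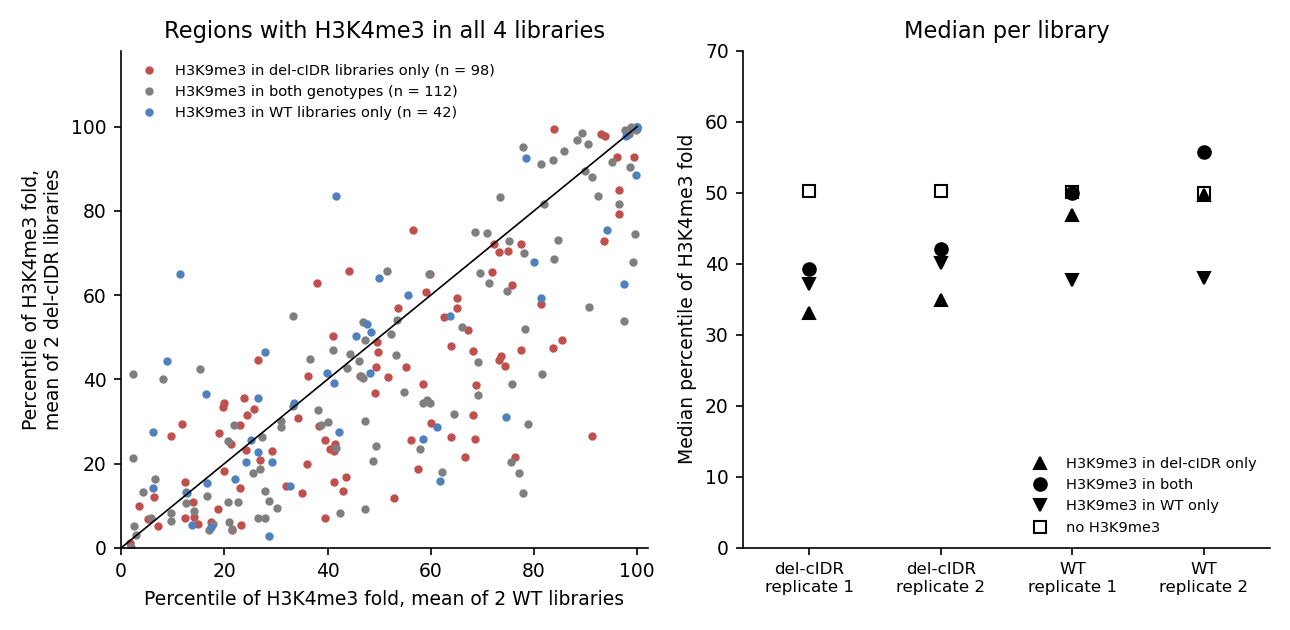
Left, each of the 252 dual sites with H3K4me3 in all 4 libraries by its mean percentile of H3K4me3 fold in WT (horizontal) and del-cIDR (vertical), coloured by the genotype of its H3K9me3 peaks, with the line of equal values. Right, median percentile in each library for these classes and for regions without H3K9me3. More points lie below the line than above it, and the medians of the sites with H3K9me3 in del-cIDR only are 33.0 and 34.9 in del-cIDR and 46.8 and 49.7 in WT.

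The ranks were also set out by the genotype in which H3K9me3 had been found. At the 98 sites whose H3K9me3 peaks came from del-cIDR libraries only, the ranks were 33.0 and 34.9 in del-cIDR and 46.8 and 49.7 in WT. At the 112 sites with H3K9me3 in both genotypes they were 39.2 and 42.1 against 50.03 and 55.8. At the 42 sites with H3K9me3 in WT libraries only they were 37.2 and 40.1 against 37.7 and 38.0, and there the median ranks of the genotypes overlapped. Site by site the 3 classes were closer together. Both del-cIDR ranks lay below both WT ranks at 40 (40.8%), 42 (37.5%) and 15 (35.7%) of their sites, beside 18.8% of the other regions, and above at 10 (10.2%), 21 (18.8%) and 10 (23.8%). The counts of sites with H3K4me3 in a single genotype were 33 WT-only and 6 del-cIDR-only among 201 sites of the first kind, 24 and 13 among 212 of the second, and 6 and 4 among 66 of the third. Because H3K9me3 peaks chose the sites and the 4 H3K9me3 lists differ in length, these classes are unequal in kind and the differences between them were not tested.

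The strongest WT-only site was chr1:3124672-3125410, with H3K4me3 folds of 14.8 and 12.4 in WT and no peak in either del-cIDR library. H3K9me3 peaks on the site itself had folds of 3.19 and 2.76 in del-cIDR and 3.399 in WT replicate 1, and no library had H3K27ac. At chr2:83259984-83261234 H3K4me3 had 9.83 and 13.9 in WT, H3K9me3 had 3.89 and 3.90 in del-cIDR and none in WT, and H3K27ac was called in WT replicate 1 alone, at 3.91. Several of the strongest had H3K9me3 in 1 library by a short overlap. At chr4:64786258-64786887, with H3K4me3 of 12.2 and 11.2 in WT, the H3K9me3 peak of del-cIDR replicate 1 shared 30 bp with the site. At chr16:47196030-47196740, with 12.02 and 10.7, that of del-cIDR replicate 2 shared 34 bp.

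At 9 dual sites H3K4me3 was found only in WT and H3K9me3 only in del-cIDR, in both libraries each time, and at 2 sites it was the reverse. The 9 are 14.3% of the 63 WT-only sites, where 11.1% of all dual sites had H3K9me3 only in del-cIDR, so their share is near that of dual sites at large. The 2 reverse sites are 8.70% of the 23 del-cIDR-only sites, where 1.25% of all dual sites had H3K9me3 only in WT. That share is above the one at large but rests on 2 sites and was not tested. No site had both marks only in the same genotype. Of the 9, chr2:133103426-133103831 had H3K4me3 folds of 5.26 and 6.21 in WT and H3K9me3 folds of 3.37 and 3.59 in del-cIDR, each covering all 406 bp. At chr8:50026583-50026963 the folds were 11.5 and 10.7 for H3K4me3 and 4.43 and 3.90 for H3K9me3. These sites were named after their values were seen. One of the reverse sites was chr13:80852572-80853282, with H3K4me3 of 8.33 and 7.07 in del-cIDR and H3K9me3 of 4.08 and 3.57 in WT, where all 4 libraries had H3K27ac, at 8.63, 9.21, 5.67 and 9.90.

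The strongest del-cIDR-only site, chr9:123290865-123291228, had H3K4me3 folds of 11.6 and 10.9 and was the most acetylated of the genotype-restricted sites named, with H3K27ac folds of 17.1, 20.3, 17.4 and 17.6. H3K27ac was thus called in both WT libraries too, where no H3K4me3 peak was. At chr10:83623221-83624927, with H3K4me3 of 7.65 and 9.75, H3K27ac was restricted too, to 7.90 and 5.61 in del-cIDR. At chr8:21130188-21130828, with 7.11 and 7.77, H3K27ac was present in all 4 libraries and H3K9me3 in the first replicate of each genotype, at 4.45 and 5.24.

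Among sites with all 4 H3K4me3 libraries, named after their values were seen, the farthest apart between genotypes was chr2:13662632-13663419. Its H3K4me3 folds were 5.81 and 8.68 in del-cIDR and 13.9 and 14.6 in WT, or ranks of 12.2, 40.8, 89.1 and 93.3. Its H3K9me3 peak was found in del-cIDR replicate 2 alone, at 3.56. At chr6:96572277-96573193 the ranks were 12.2, 23.5, 68.2 and 85.8, and H3K9me3 was present in all libraries at 6.89, 4.50, 5.98 and 4.19. In the opposite direction chr12:42198152-42199352 ranked at 68.4 and 61.4 in del-cIDR and 12.2 and 10.7 in WT, with H3K9me3 in WT replicate 2 alone, at 3.53. At chr17:15241226-15242640 the ranks were 74.3, 92.6, 34.9 and 48.3, with H3K9me3 in WT alone, at 3.95 and 3.73.

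H3K9me3 itself was present at 255 and 342 dual sites in del-cIDR and at 87 and 254 in WT, so WT replicate 2 came within 1 site of del-cIDR replicate 1 while WT replicate 1 was far below the rest. It was found in each del-cIDR library and in no WT library at 53 sites (11.1%), against 4.12% of all merged H3K9me3 regions. The reverse was seen at 6 sites (1.25%), against 0.996% of all. The shares of all merged H3K9me3 regions take peaks anywhere in such a region, whereas the dual-site counts take only peaks that touch the site. They are therefore not of like measure. With all lists reduced to the length of the shortest of their mark, which left 339 dual sites, the larger count was 30. With 1 library left out it ran from 38 to 159. It was 61 and 127 without H3K9me3 WT replicates 1 and 2, and 159 and 95 without H3K9me3 del-cIDR replicates 1 and 2. The smaller count ran from 4 to 60, and was 60 and 12 without WT replicates 1 and 2 and 11 without del-cIDR replicate 2. Among the 53, chr2:26227705-26228345, named after its values were seen, had H3K9me3 folds of 4.09 and 5.90 in del-cIDR beside H3K4me3 folds of 11.5, 12.1, 13.3 and 11.5.

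H3K27ac at dual sites did not separate the genotypes. The share was 38.7% ± 1.62 in del-cIDR against 42.8% ± 7.09 in WT (mean ± SD, n = 2 each), a difference of -4.07 points (exact permutation test, two-sided, p = 0.667, where 2 libraries against 2 cannot give less than 0.333). Without WT replicate 1 of H3K27ac, which had the highest share, the difference was 0.939 points, in the opposite direction. At other H3K4me3 regions the order was the other way, with 61.6% ± 4.04 in del-cIDR and 49.4% ± 0.912 in WT. Dual sites were therefore below other regions by 22.9 points in del-cIDR (difference -22.9, SD 2.41, n = 2) and by 6.62 points in WT (difference -6.62, SD 6.17, n = 2). The difference of these differences, which was examined after the data had been seen, was -16.3 points, with both del-cIDR libraries below both WT libraries (exact permutation p = 0.333, the smallest possible).

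Sites acetylated in a single genotype were counted next. H3K27ac was found only in del-cIDR, in both libraries, at 14 dual sites (2.92%), against 5.51% of all replicated H3K4me3 regions. It was found only in WT at 20 dual sites (4.18%), against 0.709% of all. At chr7:114161795-114162548 the H3K27ac folds were 9.81 and 7.65 in del-cIDR, beside H3K4me3 in all 4 libraries. At chr8:78633568-78634444 they were 5.78 and 10.8 in WT, beside H3K4me3 folds of 9.77 in del-cIDR replicate 2 and 15.6 and 13.7 in WT. Both sites were named after their values were seen.

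Acetylation also differed between the dual sites with H3K4me3 in a single genotype. At the 63 WT-only sites H3K27ac was present at 7, 4, 14 and 12 sites, a mean of 8.73% in del-cIDR and 20.6% in WT, and 39 of the 63 had it in no library. The 594 other regions with H3K4me3 only in WT had 36.4% and 35.4%. At the 23 del-cIDR-only sites the means were 52.2% in del-cIDR and 28.3% in WT, beside 43.6% and 29.3% at the 435 other del-cIDR-only regions. These groups of sites were formed after H3K4me3 had been examined and the shares are given without a test.

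At the limits of the selection, 126 dual sites had H3K4me3 in exactly 2 libraries, 208 had H3K9me3 in exactly 1, and 59 were at both limits. Just outside it, 207 of the 3517 regions with H3K4me3 in a single library (5.89%) overlapped H3K9me3. Among the other H3K4me3 regions, 37 had an H3K9me3 peak within 100 bp and 378 within 1000 bp.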

How the data were processed

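The authors deposited 1 peak list per library, on GRCm39. Per the submitters' processing notes MACS2 was used, along with BWA, fastp, SAMtools, Picard and featureCounts. What versions, settings or control library were used is not given in the sources used here. H3K4me3 and H3K27ac are narrow peaks and H3K9me3 broad peaks. The deposited lists hold, per peak, a fold enrichment, a ratio to the background of that library, and the −log10 of the p-value and q-value. The lowest deposited −log10 q was 1.30 for H3K4me3 and H3K27ac and 1.00 for H3K9me3, so weaker sites are not in the lists.

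Peaks of a mark were merged from 1 bp of overlap, and a mark was counted at a region when a peak of that library touched the region itself. Shares were compared over the 4 H3K27ac libraries by flipping signs (16 arrangements), and between genotypes by exact permutation of 2 libraries against 2 (6 arrangements). The smallest p-values are 0.125 and 0.333, so neither test can pass 0.05. Computations used Python 3.11.15, pandas 2.3.3 and NumPy 2.4.6, and were tested on simulated data.

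Alternatives were a −log10 q of at least 5 per mark, 50% cover, all 4 H3K4me3 or at least 2 H3K9me3 libraries, equal list lengths, merging within 1000 bp, each library left out and a replicate block.

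The sites, lists and tests were chosen with earlier results of these data known. Named regions follow a rule: among sites with both marks in all libraries, the 12 most covered by H3K9me3 and the 6 highest in percentile of fold for H3K9me3, for H3K4me3 and, with H3K27ac in all libraries, for H3K27ac, the 6 strongest per genotype-restricted H3K4me3 direction, the 6 widest, and the 3 longest runs, of which the text gives a selection of the 38 distinct regions. Others are said to be chosen after their values were seen. The gene table at hand is built on GRCm38.p6, another build, so no gene was assigned, the gene lists drawn up for these sites were not counted, and no sequence is shown. For H3K27ac at dual sites, the deviations of del-cIDR replicate 1 and WT replicate 1 from their genotype means were hardly correlated (-0.0106). This was not examined for the other marks, and it cannot show whether samples of the same replicate number were handled together.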

Additional observations from a re-analysis of the deposited data

Results flagged for a closer look

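Chromosome X was outside the selection. By the same rule it held 20 sites with both marks among 669 replicated H3K4me3 regions (2.99%), close to the 2.48% of the autosomes. At 6 of the 20 H3K4me3 was found only in del-cIDR and at none only in WT, the reverse of the autosomal order. Over all 669 regions of X the same patterns were seen at 33 (4.93%) and 13 (1.94%), so X as a whole also had more del-cIDR-only regions. At 2 of the 20 sites H3K9me3 was present in all 4 libraries. The difference from the autosomes was not tested.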

How the results depend on the processing

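The number of dual sites was 26 with H3K9me3 peaks of −log10 q of at least 5, 178 with H3K9me3 over at least 50% of the site in a library, 252 with H3K4me3 in all 4 libraries, 271 with H3K9me3 in at least 2, 278 with H3K9me3 in a WT library, and 373 to 473 with 1 library left out. In the first 3 of these settings, sites with H3K9me3 in all 4 libraries numbered 6, 13 and 31, and 30 without the 19 sites peaked in all 12 libraries, with 44 to 123 when 1 library was left out. With the strict H3K9me3 limit the H3K27ac difference from the remaining regions reversed to 16.03 points (exact permutation p = 0.125). Those regions then included the dual sites with only weaker H3K9me3 peaks. H3K4me3 was del-cIDR-only and WT-only at 1 and 1 sites with that limit, 13 and 32 with 50% cover and 15 and 33 with 2 H3K9me3 libraries, and only in WT at 30 with H3K9me3 in a WT library. With 1 library left out the ranges were 19 to 37 and 45 to 105. H3K9me3 was del-cIDR-only and WT-only at 0 and 0 with the strict limit, 17 and 1 (50% cover) and 26 and 3 (H3K4me3 in all 4), only in del-cIDR at 30 with equal list lengths, and at 38 to 159 and 4 to 60 with 1 library left out. The width ratio was 0.673 (strict limit), 0.657 (50% cover), 0.807 (H3K4me3 in all 4), 0.772 (H3K9me3 in a WT library) and 0.723 to 0.756 with 1 library left out. The genotype difference in median H3K4me3 rank, -11.3, was -6.75 (strict limit), -13.1 (2 H3K9me3 libraries), -13.6 (equal lists), -7.47 and -14.7 (H3K9me3 in a WT or a del-cIDR library), and -15.1 to -10.0 with 1 library left out.

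The H3K27ac difference between genotypes ran from -9.08 to 0.939 points with 1 library left out, and reversed only without WT replicate 1 of H3K27ac. With a replicate block it was -4.07 (exact permutation p = 1.00 over 2 pairs). The difference of differences kept its sign in the 26 alternatives run for it, -20.6 to -11.9, and so did the H3K27ac percentile, 8.999 to 32.8. The difference in H3K27ac peaks within 50 kb, which was not computed within width classes or at 50% cover by H3K27ac, stayed between -1.40 and -0.697. Genotype-only H3K4me3 counts have no value when the library that defines them is left out. The rank, percentile, neighbour and difference-of-differences results, and the settings that leave out chromosomes 6, 8 and 12 or the 19 sites or split sites by the genotype of their H3K9me3, were chosen after seeing the data. The cause of these shifts was not tested, and weak peaks and unknown depth limit all counts.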
